A study of Homo sapiens with 2 samples.

Results

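The mRNAs of the mitochondrial ribosomal proteins were compared between RNA that precipitated with CNBP and input RNA of the same kind of lysate. CNBP is an RNA-binding protein with zinc knuckles that prefers G-rich stretches of unpaired RNA or DNA. The members were all rows of the deposited table whose symbol is MRPL or MRPS followed by a number. The rule found 78 of the 10836 protein-coding genes, 49 with an MRPL and 29 with an MRPS symbol. It uses the symbol alone. Cells of the human colon carcinoma line HCT116 were irradiated with ultraviolet light at 200 mJ/cm2 and 254 nm, homogenized and sonicated. CNBP was then precipitated with an antibody on beads, and the RNA that came with it gave the CNBP RIP (RNA immunoprecipitation) library. The input library came from cells treated the same way. The labels name no other treatment of the cells.

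There was 1 library per group, so differences between RIP and input have no replicate check, and no test was run. No library with a control antibody was used here, and RNA recovered without CNBP is therefore unknown. Levels are FPKM (fragment counts scaled by transcript length in kilobases and by 1000000 mapped fragments), on build hg19, and the depth behind them is unknown. FPKM summed to 109684 in the RIP and 214387 in the input. Each gene of the table had an FPKM of 0.5 or more in at least 1 library. A gene below that in the input is thus listed only if higher in the RIP, which enters every share over all genes. The log2 ratio is log2(RIP FPKM + 1) minus log2(input FPKM + 1), the formula of the study, and its folds are on the FPKM + 1 scale. The added 1 understates differences of genes at low FPKM. Of the epithelial markers in the input, EPCAM was at 108.7, KRT8 at 432.9 and KRT18 at 564 FPKM, while CDH1, the epithelial cadherin, was at only 0.415 FPKM. CDX1 was not analysed here. CNBP mRNA itself was at 37.2 FPKM in the RIP and 44.9 FPKM in the input.

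The mitochondrial ribosome makes the few proteins encoded by mitochondrial DNA, all of them subunits of the respiratory chain and the ATP synthase. Its rRNAs and a structural tRNA come from mitochondrial DNA, but its proteins are encoded in the nucleus, translated on cytosolic ribosomes and imported. Some descend from bacterial ribosomal proteins and others were gained in the mitochondrial lineage. MRPL proteins build the large subunit, where peptide bonds form, and MRPS proteins the small subunit, where mRNA is decoded. A few names are historical. MRPS30 (mL65) and MRPS18A (mL66) sit in the large subunit, and MRPS36, now named KGD4, belongs to the oxoglutarate dehydrogenase complex.

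As a group, these mRNAs were abundant in the input but near the median gene in the CNBP RIP. Their median level was 3.27 FPKM in the RIP and 41.3 FPKM in the input, while the median over all genes of the table was 2.78 FPKM in the RIP and 1.95 FPKM in the input. Above the median gene were 44 members in the RIP and 77 in the input. The median log2 ratio of the 78 members was -2.80, which is 6.97-fold lower in the RIP, beside 0.28 over all genes. At least 4-fold lower were 64 of the 78 members, against 13.5% of all genes. At least 1.5-fold lower (a log2 ratio of -0.58 or below) were 75 members, against 34.7% of all genes. In the other direction, 1 member was at least 1.5-fold higher, against 42.6% of all genes, and none was at least 4-fold higher, against 12.5%. Members held 0.740% of all FPKM summed over the RIP library and 2.07% of that of the input library. Of the 78, 6 were in the highest 10% of genes by level in the RIP and 47 in the input. With each library rescaled to a sum of 1000000 FPKM, the median ratio of all genes became 1.301 and that of the members -2.19. On that scale 42 members were at least 4-fold lower, against 15.6% of all genes, 67 at least 1.5-fold lower, against 26.9%, and 3 at least 1.5-fold higher, against 59.5%.

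**Figure D1:**
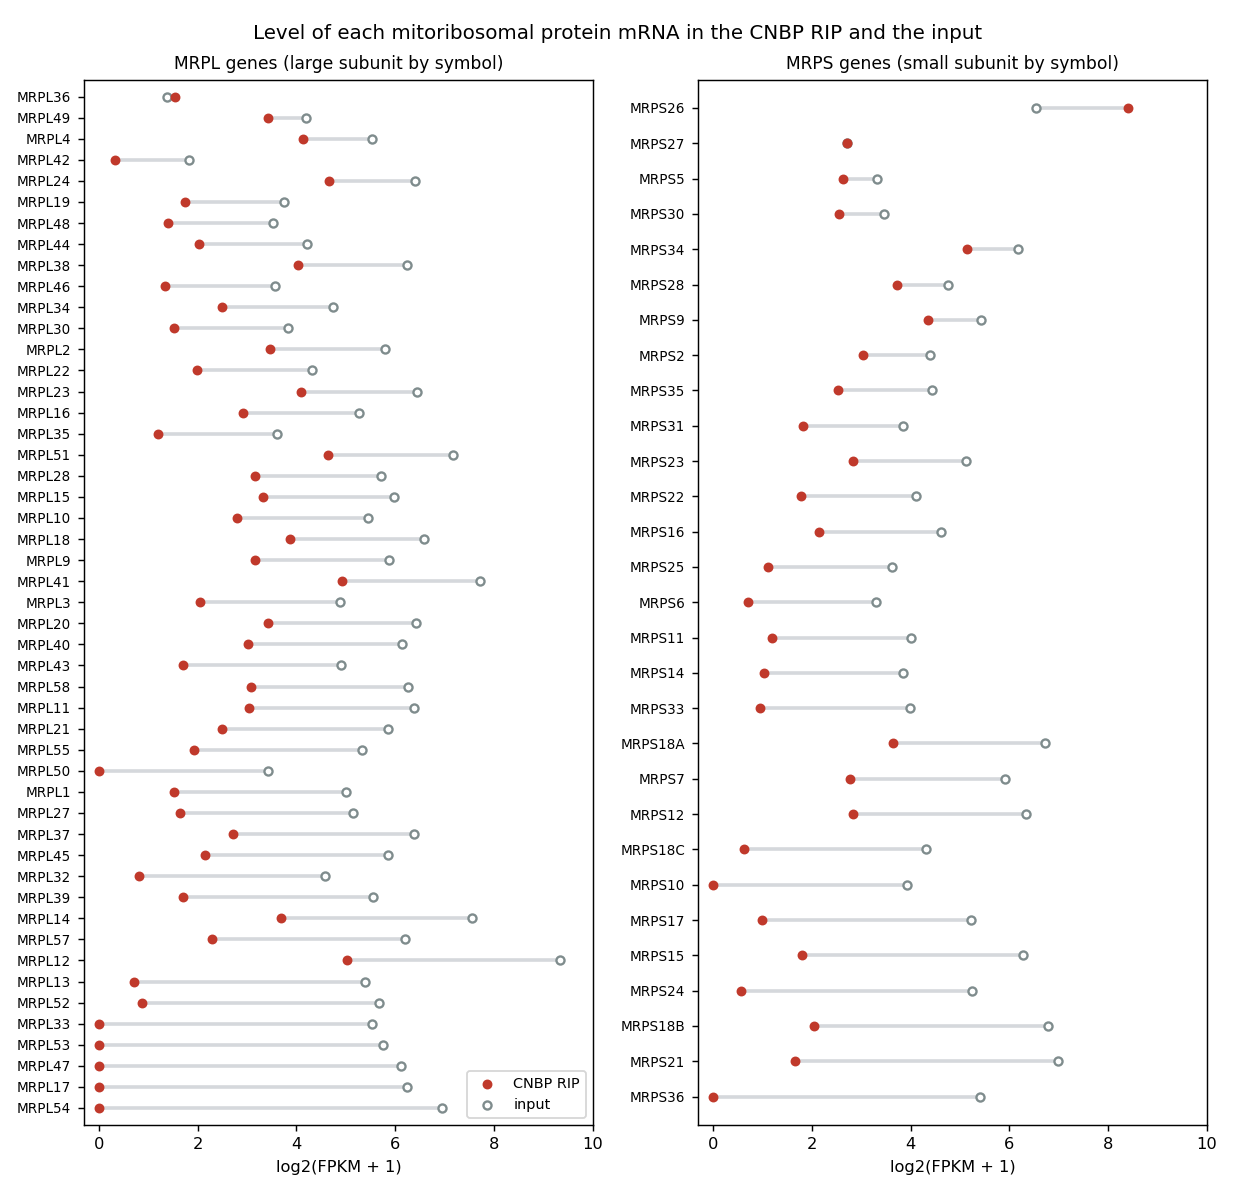
Level of each of the 78 mRNAs as log2(FPKM + 1), in the CNBP RIP (filled red points) and in the input (open grey points), with MRPL genes on the left and MRPS genes on the right, ordered by log2 ratio. The RIP point lies left of the input point for 75 members and right of it for MRPS26, MRPL36 and, by 0.01, MRPS27.

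MRPS26 stood apart from all other members. It encodes mS26, a small subunit protein with no bacterial counterpart, on a gene of 2310 bases (hg19 chr20:3026591-3028900, plus strand). Its level was 339 FPKM in the RIP and 92.5 FPKM in the input. This log2 ratio of 1.86 is 3.63-fold higher on the FPKM + 1 scale. It was rank 22 of all genes in the RIP and rank 400 in the input. The next member in the RIP, MRPS34, was at 34.2 FPKM there, so MRPS26 was 9.89-fold above it. MRPS26 alone carried 41.7% of the members' summed FPKM in the RIP, and without it their share of the library was 0.431%. Of the 1086 genes in the shortest of 10 bins of span, 87 had a ratio at least that of MRPS26. The ratio of MRPS26 was at percentile 92.1 there and at percentile 85.9 over all genes. Ratios this high were thus less frequent among the shortest genes than over the whole table. No member exceeded the ratio of CCND1, the cyclin D1 mRNA that the study followed, which was 2.12.

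With FPKM as deposited, only 2 other members were not lower in the RIP. MRPS27, a pentatricopeptide repeat protein of the small subunit, had 5.59 FPKM in the RIP and 5.54 FPKM in the input (log2 ratio 0.01). MRPL36, the small zinc-binding protein bL36m, had 1.93 FPKM in the RIP and 1.59 FPKM in the input (log2 ratio 0.18). With ratios centred on the median gene, both were slightly below 0 (-0.27 for MRPS27 and -0.11 for MRPL36). MRPL36 had the lowest input level of all members and MRPS27 the third lowest. MRPL42, between them at 2.56 FPKM in the input, was at 0.257 FPKM in the RIP, the lowest RIP level of a member above 0.

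At the other end, 8 members were listed at 0 in the RIP and none in the input. Among all genes 9.69% were listed at 0 in the RIP. MRPL54, a mitochondria-specific protein of the large subunit, had 122 FPKM in the input. MRPL17 and MRPL47, which line the rim of the exit tunnel, had 74.0 and 67.9 FPKM in the input. MRPL53 had 52.9, MRPL33 had 45.4, MRPS36 had 41.6, MRPS10 had 14.2 and MRPL50 had 9.69 FPKM in the input. These 8 thus ranged widely in abundance, and 6 of them are from the large subunit. For genes with an input of at least 9.69 FPKM, 73 members among them, the share listed at 0 in the RIP was 5.27%. This limit is the lowest input among the 8, so all 8 pass it by construction, and no conclusion is drawn from the share. A value of 0 without read counts can also be a failed estimate, so no fold is given for these genes, which enter counts and medians with the ratio that the added 1 gives. With the 8 left out, the median log2 ratio of the other 70 was -2.66, beside 0.46 over the 9605 genes above 0 in both libraries.

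Sequence around the annotated start was taken from RefSeq (GRCh38.p14) for 69 of the 78 members, and examples are shown. The first set is the 60 bases before the annotated start, with the ETS-type motif CCGGAAG, or its reverse complement CTTCCGG, in capitals. These bases lie before the RefSeq start. It was not checked whether the gene span listed on hg19 begins further upstream and takes them in. MRPS26 is shown as the member highest in the RIP, and MRPL54 and MRPL47 as the most abundant members listed at 0 there with the motif. MRPS21 is shown as the member with the lowest ratio, at a pseudocount of 1, among those above 0 FPKM in both libraries.
MRPS26, chr20:3045992-3046051, plus strand: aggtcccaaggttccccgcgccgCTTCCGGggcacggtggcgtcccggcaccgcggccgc
MRPL54, chr19:3762622-3762681, plus strand: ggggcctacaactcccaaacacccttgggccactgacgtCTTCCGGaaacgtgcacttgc
MRPL47, chr3:179604639-179604698, minus strand: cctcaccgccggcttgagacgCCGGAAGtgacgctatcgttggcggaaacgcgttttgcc
MRPS21, chr1:150293801-150293860, plus strand: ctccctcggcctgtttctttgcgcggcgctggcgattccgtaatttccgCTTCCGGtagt
All 4 were chosen as carriers of the motif. MRPL17 and MRPL50, also listed at 0 in the RIP, have no CCGGAAG in the window searched. In windows of 300 bases (250 before and 50 after the start, both strands), CCGGAAG was found for 29 of 69 members (42.0%) and for 20.4% of the 8370 genes of the table with a window. AAGATGGC, a YY1-type motif that can share the letters AAG with it, was found for 20 members (29.0%) and 5.90% of those genes. The median log2 ratio was -3.03 for members with CCGGAAG and -2.76 for those without. Over all genes with a window it was -0.09 with CCGGAAG and 0.38 without. Members with CCGGAAG also had a higher median input, at 50.0 FPKM beside 33.5 FPKM. A match describes letters only and is not a bound site, and the RefSeq start may not be the one used in HCT116.

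The second set shows up to 30 transcribed bases around GGAG (capitals), the core motif that the study examined for CNBP, as DNA letters on the transcript strand. It was searched in the first 50 transcribed bases only, so the rest of each mRNA is not covered.
MRPS26, GGAG at base 6: agtgaGGAGactcggccatgctacgcgcgc
MRPL4, GGAG at base 4: gtcGGAGgcgggacccaaagtaggctaggc
MRPL53, GGAG at base 11: cttccggggcGGAGgtcaccatggcagctg
MRPL47, GGAG at base 46: gcggccggtttggcccttctttgtaGGAGa
MRPS26 was at 339 FPKM in the RIP, MRPL4 at 16.5 FPKM, and MRPL53 and MRPL47 were listed at 0, so GGAG near the start occurred across the whole range. It was present in 21 of 69 members (30.4%) and in 43.5% of the 8370 genes. The median log2 ratio was -2.51 for the 21 members with it and -3.01 for those without, and 0.43 for all genes with it against 0.19 without. The order differed between the subunits, with -3.13 with GGAG and -3.06 without it in the large subunit, and -2.47 with it and -2.92 without it in the small subunit.

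**Figure D2:**
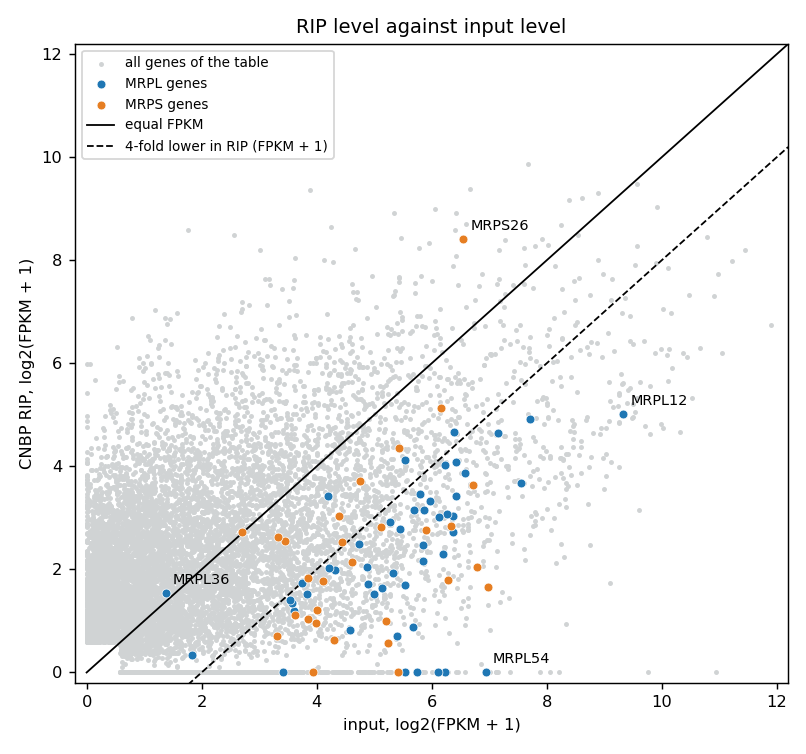
CNBP RIP level against input level, both as log2(FPKM + 1), for all 10836 genes (grey), the 49 MRPL genes (blue) and the 29 MRPS genes (orange), with lines at equal level and at 4-fold lower in the RIP. On or below the dashed line lie 64 members, and MRPS26 is the member farthest above the solid line.

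By subunit, the large subunit genes had a median log2 ratio of -2.83 (7.09-fold lower) and the small subunit genes of -2.61 (6.10-fold lower). Of the MRPL genes, 44 of 49 were at least 4-fold lower and 48 at least 1.5-fold lower. Of the MRPS genes, 20 of 29 were at least 4-fold lower and 27 at least 1.5-fold lower. The shares over all genes were 13.5% and 34.7%. The difference of the medians, large minus small, was -0.22, and its sign turned under other pseudocounts and scalings. The lower quartiles were close, at -3.69 for the large and -3.68 for the small subunit, while the upper quartiles were -2.34 and -1.34. Thus the small subunit had a longer upper tail. Input levels also differed, with medians of 50.0 FPKM for the large and 23.5 FPKM for the small subunit, and the part of level in the difference was not tested. Assigning each protein by its place in the structure (51 large, 26 small) gave medians of -2.83 and -2.56.

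The proteins with a bacterial counterpart and those specific to mitochondria were both lower in the RIP than in the input. The 45 members with a bacterial counterpart had a median log2 ratio of -2.80 and the 29 mitochondria-specific members of -2.51. Among MRPL genes the mitochondria-specific group was the lower one, at -3.18 for 19 genes beside -2.71 for 29 genes with a counterpart. Among MRPS genes the order was the other way, at -1.96 for 10 mitochondria-specific genes beside -2.98 for 16 with a counterpart. The 10 include MRPS26, MRPS27 and MRPS34, and also MRPS30 (-0.90), which sits in the large subunit. MRPS18B (-4.75), a small subunit protein, was not classed. MRPS18A and MRPL55 were not classed either, and MRPS36 is not a mitoribosomal subunit, so none of these is in either group. Medians by place in the structure were not computed for these groups.

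The stalk proteins contact translation factors and tRNA. MRPL12, the counterpart of the bacterial L7/L12 protein that recruits the factors, was the most abundant member in the input (hg19 chr17:79670387-79674556). It had 31.3 FPKM in the RIP and 645 FPKM in the input, a log2 ratio of -4.32. It ranked 690 of all genes in the RIP and 50 in the input. MRPL11 and MRPL10, of the stalk base, had ratios of -3.34 and -2.67. MRPL1, of the stalk at the tRNA exit side, had 1.89 FPKM in the RIP and 30.8 FPKM in the input. All 4 were at least 4-fold lower, with a median of -3.40. This also held for 64 of all 78 members, against 13.5% of all genes.

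Around the peptidyl transferase centre, the site of peptide bond formation, the ratios were less low. The median log2 ratio of the 5 genes assigned to it here was -2.35, and 4 of them were at least 4-fold lower. Over all 78 members this held for 64, and over all genes for 13.5%. MRPL27 was lowest, with 2.11 FPKM in the RIP and 34.4 FPKM in the input. MRPL4, which could also be placed with the exit tunnel, was highest, with 16.5 FPKM in the RIP and 45.2 FPKM in the input (log2 ratio -1.40). MRPL2, MRPL3 and MRPL16 lay between -2.83 and -2.34.

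The exit tunnel guides the growing chain towards the inner membrane. The 6 genes assigned to it here, without MRPL4, had a median log2 ratio of -3.02. MRPL17 and MRPL47 were the 2 listed at 0 in the RIP. MRPL45, which tethers the ribosome to the membrane, had 3.46 FPKM in the RIP and 56.6 FPKM in the input. MRPL24 had 24.4 FPKM in the RIP and 82.9 FPKM in the input, a log2 ratio of -1.73. It was the only one of the 6 less than 4-fold lower. Of all 78 members, 64 were at least 4-fold lower, against 13.5% of all genes.

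In the small subunit, 6 proteins were assigned here to the path of the mRNA and the decoding site. MRPS24 had the lowest ratio, with 0.484 FPKM in the RIP and 36.6 FPKM in the input (log2 ratio -4.66). MRPS12, whose bacterial counterpart monitors the codon, had 6.17 FPKM in the RIP and 79.7 FPKM in the input. MRPS9 had 19.4 FPKM in the RIP and 42.1 FPKM in the input, and MRPS5 had 5.23 FPKM in the RIP and 9.04 FPKM in the input. Thus 4 of the 6 were at least 4-fold lower, while MRPS9 (-1.08) and MRPS5 (-0.69) were among the least depleted members. Among all 78 members 64 were at least 4-fold lower, against 13.5% of all genes. MRPS7 and MRPS11 had ratios of -3.14 and -2.80.

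The S18 family has 3 related genes, all lower in the RIP, as were 75 of the 78 members. MRPS18A, a large subunit protein despite its name, had 11.5 FPKM in the RIP and 104.8 FPKM in the input. MRPS18B had 3.11 FPKM in the RIP and 109.3 FPKM in the input. MRPS18C, the counterpart of bacterial S18, had 0.542 FPKM in the RIP and 18.8 FPKM in the input. All 3 were at least 4-fold lower, at -3.09, -4.75 and -3.68, as were 64 of all 78 members and 13.5% of all genes.

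Among members above 0 in both libraries, and with a pseudocount of 1, MRPS21 had the lowest ratio, at 2.15 FPKM in the RIP and 125.8 FPKM in the input (log2 ratio -5.33). Next came MRPL52 at -4.79 and MRPS18B at -4.75, then MRPL13 at -4.68, MRPS24 at -4.66 and MRPS15 at -4.49. MRPL12 (-4.32), MRPS17 (-4.22), MRPL57 (-3.91) and MRPL14 (-3.88) complete the 10 lowest. Small subunit genes were 5 of these 10. The order depends on the pseudocount. With one of 0.1, MRPS24 (-5.97) was below MRPS21 (-5.81), and MRPS18C (-4.88) and MRPL32 (-4.73) were below MRPL12 (-4.36), MRPL57 (-4.19) and MRPL14 (-3.98). Rescaling to a common sum also put MRPS24 (-4.99) below MRPS21 (-4.83). MRPL14 was also abundant, with 11.8 FPKM in the RIP and 187.4 FPKM in the input.

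The most abundant members of the input were, after MRPL12, MRPL41 and MRPL14. MRPL41, a mitochondria-specific protein, had 29.1 FPKM in the RIP and 208.8 FPKM in the input (log2 ratio -2.80). MRPL51, also mitochondria-specific, had 24.1 FPKM in the RIP and 142.1 FPKM in the input (log2 ratio -2.51). MRPS21, MRPL54, MRPS18B, MRPS18A, MRPL18 and MRPS26 fill the remaining places among the 10 highest. MRPL18 had 13.6 FPKM in the RIP and 94.1 FPKM in the input. So 9 of the 10 most abundant members were at least 4-fold lower, and MRPS26 was the exception. Such ratios were common at this abundance. In the highest of 10 bins of input level, where these members lie, the median log2 ratio of all genes was -2.61. In the RIP the 5 highest were MRPS26, MRPS34, MRPL12, MRPL41 and MRPL24, which together held 56.4% of the members' FPKM there. Across the 78 members, Spearman's rank correlation of RIP level and input level was 0.49, beside 0.39 over all genes. Genes are not independent replicates, and these values describe a single pair of libraries.

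Members that were lower by only 1.61- to 2.54-fold were MRPS2, MRPS9, MRPS28, MRPS34, MRPS30, MRPL49 and MRPS5, with log2 ratios of -1.34 to -0.69. MRPS34, which the small subunit needs for its stability, had 34.2 FPKM in the RIP and 70.8 FPKM in the input. MRPL49 had 9.73 FPKM in the RIP and 17.3 FPKM in the input. Under the scaling to a common sum, 6 of these 7 were close to their input level, at 0.17 for MRPS5, 0.13 for MRPL49, -0.07 for MRPS30, -0.08 for MRPS34, -0.12 for MRPS28 and -0.15 for MRPS9, and MRPS2 was at -0.49. Closest to the 4-fold limit were MRPS35 (-1.91) outside it and MRPL19, with 2.33 FPKM in the RIP and 12.3 FPKM in the input, inside it.

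Gene span, which counts all bases of the locus with its introns, was set against the ratio because the ratio went with span over the whole table. Over all genes the rank correlation of ratio and span was 0.37, and the median ratio went from -1.12 in the shortest of 10 bins of span to 0.99 in the longest. Members are mostly short, with a median span of 11937 bases beside 29750 for all genes, and 25 of them lie in the shortest bin. Their own ratio followed span little. The rank correlation was 0.12 over the 78 members, 0.02 over the large and 0.30 over the small subunit genes. In each of the 10 bins the median of the members was below that of all genes. Members were below the bin's median in 21 of 25 cases in the shortest bin and without exception in the other 9 bins. After subtraction of the median ratio of the bin, the median of the members was -2.43 and 52 were at least 4-fold below their bin, against 12.7% of all genes.

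The longest and the shortest genes both had ratios across a wide range. MRPS22 spans 351418 bases in the table and had 2.43 FPKM in the RIP and 16.4 FPKM in the input. Its RefSeq start lies far inside this listed span, so the RefSeq gene is shorter. MRPL33 spans 216371 bases and had a listed 0 in the RIP, with 45.4 FPKM in the input. MRPS28, at 111573 bases, had 12.1 FPKM in the RIP and 25.9 FPKM in the input. MRPS27 and MRPL1, the other 2 of the 5 longest, had ratios of 0.01 and -3.46. Among the 5 shortest (1266 to 2310 bases), MRPS34 had -1.03, MRPL41 -2.80, MRPL53 a 0 in the RIP, MRPL51 -2.51 and MRPS26 1.86. Both ends of the range of span thus hold members listed at 0 and members close to or above their input level. Within the subunits, medians by span ran in opposite directions, and whether this exceeds the spread between libraries was not tested. With a span up to the median of all genes, 21 MRPS genes had a median of -3.09, and the 8 longer ones of -1.49. For MRPL genes these medians were -2.80 (39 genes) and -3.08 (10 genes).

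**Figure D3:**
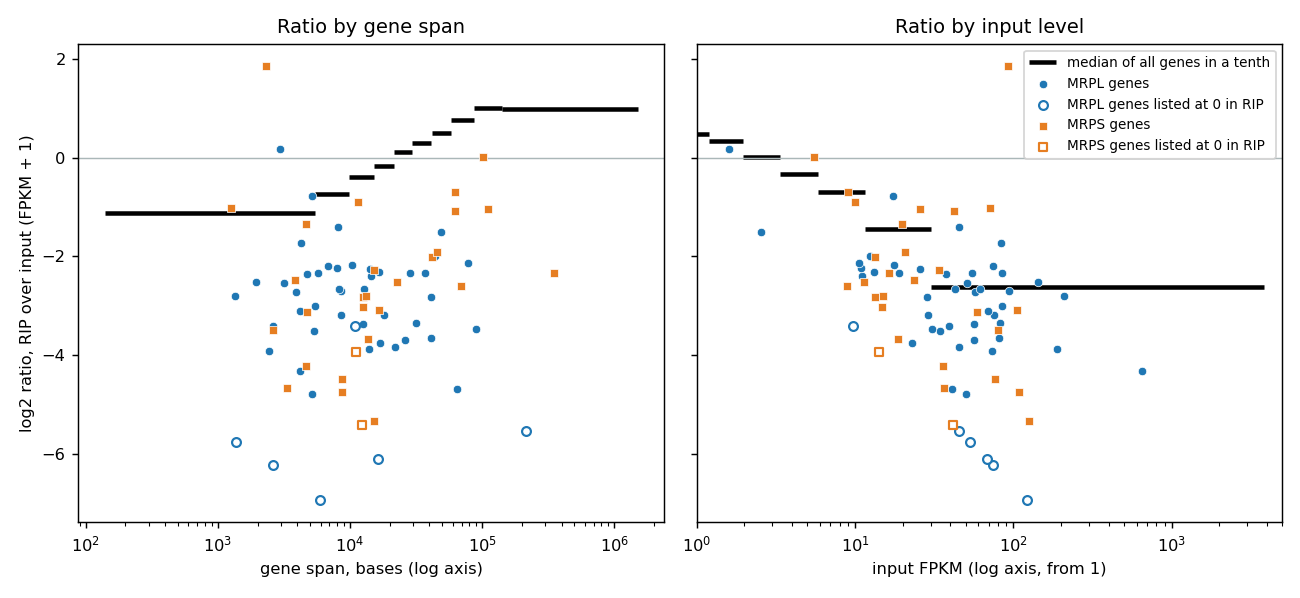
Log2 ratio (RIP over input, FPKM + 1) of each member against gene span in bases (left, log axis) and against input FPKM (right, log axis from 1), with MRPL genes as blue circles, MRPS genes as orange squares and open symbols for genes listed at 0 in the RIP. Black bars are the medians of all genes in 10 bins of span or of input level, and in the highest bin of input that median is -2.61.

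Input level went with the ratio more than span did. Over all genes the rank correlation of ratio and input level was -0.61, and over the members it was -0.44. The median ratio of all genes was -2.61 in the highest of 10 bins of input level (30.05 FPKM and above), where 47 members lie with a median of -3.36. In the next bin 20 members had a median of -2.34, beside -1.45 for all genes, and in the bin below that 8 members had -2.32, beside -0.70. The input level is itself a part of the ratio. In addition, genes below 0.5 FPKM in the input are listed only if higher in the RIP. In the lowest bin of input level (up to 0.168 FPKM) the median ratio of all genes was 1.12. Part of the correlation over all genes is thus fixed by this filter, and the size of that part was not tested. After subtraction of the median of the bin of input level, an alternative added after seeing the data, the median of the members was -0.87, and 61 of 78 were below 0, against 50% of all genes. Set against genes of like abundance, the members were thus still lower in the RIP, but by much less, with medians of -0.85 for the large and -0.89 for the small subunit. On this scale the 5 genes assigned to the peptidyl transferase centre, MRPL4 among them, were at 0.26, the 4 stalk genes at -0.79 and the 3 S18 genes at -2.13. MRPS26 lay furthest above its bin, by 4.48, followed by MRPS34 at 1.59 and MRPS9 at 1.54.

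Other genes of mitochondrial translation had a median ratio closer to 0, and also a lower input level. Of 54 names looked up, 46 had a row. Their median log2 ratio was -1.05, beside 0.28 over all genes. At least 4-fold lower were 12, against 13.5% of all genes, and at least 1.5-fold lower 28, against 34.7%. At least 1.5-fold higher were 6, against 42.6%. Their median input was 8.70 FPKM, beside 41.3 FPKM for the members. With the bin of input level subtracted, the medians were -0.45 for these genes and -0.87 for the members. Among 6 proteins of or at the ribosome whose symbols the rule does not match, the median was -1.17. CHCHD1 (mS37) had 4.87 FPKM in the RIP and 84.1 FPKM in the input, and OXA1L, the insertase at the exit tunnel, 4.26 FPKM in the RIP and 31.3 FPKM in the input. GADD45GIP1 (mL64) had 239 FPKM in the RIP and 197.2 FPKM in the input, and AURKAIP1 (mS38) 186.3 FPKM in the RIP and 193.7 FPKM in the input. Thus these last 2 subunits were about as high in the RIP as in the input. All 3 subunits with values given here have short genes (4118 bases for GADD45GIP1, 1766 for AURKAIP1 and 1606 for CHCHD1, the lowest of the 6 at -3.86).

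The 23 assembly factors had a median of -1.21. MTERF3, a mitochondrial nucleic acid-binding protein, and TFB1M, an rRNA methyltransferase, were listed at 0 in the RIP, with 19.1 and 8.96 FPKM in the input. MALSU1, a late large subunit factor, had 1.26 FPKM in the RIP and 31.3 FPKM in the input. The highest ratios were those of MRM2, an rRNA methyltransferase, at 1.59 and DHX30, an RNA helicase, at 1.26. The 17 translation factors had a median of -0.995. SLIRP had 1.46 FPKM in the RIP and 98.1 FPKM in the input (log2 ratio -5.33), while its partner LRPPRC had 16.6 FPKM in the RIP and 3.26 FPKM in the input (log2 ratio 2.04). MTIF3, an initiation factor, had a ratio of -2.25. TUFM, the elongation factor that delivers tRNA, had 339 FPKM in the RIP and 241 FPKM in the input. PDF, the deformylase, had 15.9 FPKM in the RIP against a listed 0 in the input.

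The proteins of the cytosolic ribosome were lower still in the RIP than those of the mitochondrial ribosome. The median log2 ratio of 79 such genes was -4.10, and 76 were at least 4-fold lower, against 13.5% of all genes. Their median level was 28.4 FPKM in the RIP and 545 FPKM in the input, far above that of the members in the input. With the bin of input level subtracted their median was -1.49.

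**Figure D4:**
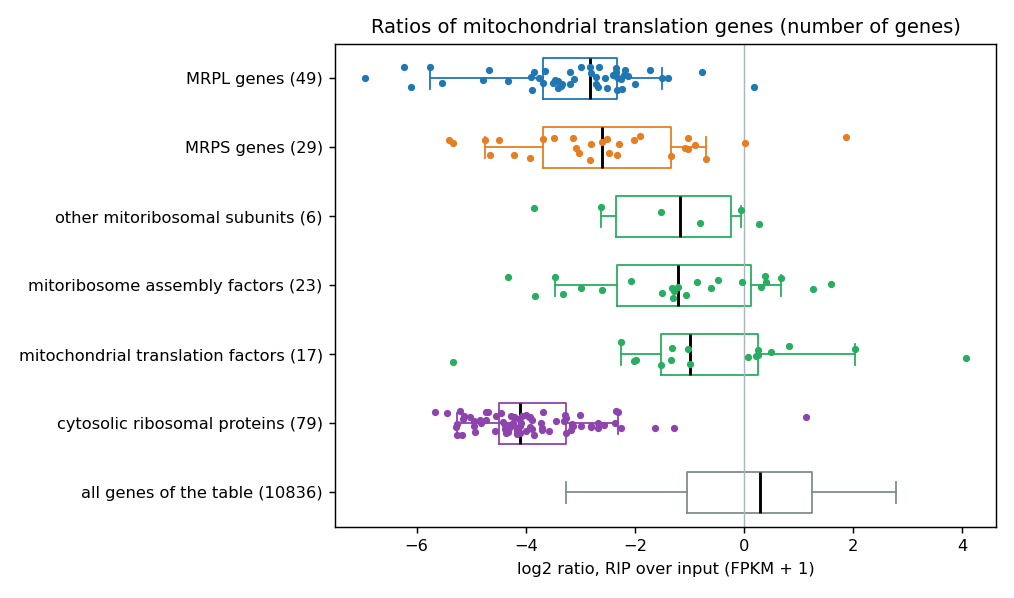
Log2 ratios (RIP over input, FPKM + 1) of the MRPL and MRPS genes, of 3 groups of other mitochondrial translation genes, of cytosolic ribosomal proteins and of all genes, with the number of genes in brackets. Boxes give median and quartiles, whiskers the 5th and 95th percentile, and points single genes (not drawn for all genes); the medians run from -4.10 for cytosolic ribosomal proteins to 0.28 for all genes.

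The members lie on 21 chromosomes, and 26 overlap another gene of the table. For 6 of these the other gene is on the same strand, which touches MRPL33, MRPL38, MRPL53, MRPS16, MRPS17 and MRPS24, and fragments there may have been credited to either gene. MRPS24, for instance, lies within the read-through gene URGCP-MRPS24. Only 1 pair of members neighbour each other closely. MRPS11 and MRPL46 are transcribed away from each other on chromosome 15 with starts 34 bases apart (hg19 chr15:89010684-89024004 and chr15:89002707-89010650). MRPS11 had 1.303 FPKM in the RIP and 15.1 FPKM in the input, and MRPL46 had 1.53 FPKM in the RIP and 10.9 FPKM in the input. Their ratios were -2.80 and -2.23.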

How the data were processed

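The authors deposited 1 table of FPKM per gene for 1 CNBP RIP and 1 input library. Build hg19 and the tools HISAT2, StringTie, cutadapt and FastQC are given in the submitters' processing notes, with no version or role, and poly(A) selection and use of strand in counting are not given in the sources used here. FPKM divides by transcript length and was not scaled to a common sum, and no counts or depths are known. The 78 members, the lists and the comparisons were chosen with earlier results of these data known. Every member could be named. Those given in full were members not lower in the RIP, those at 0, the 10 lowest ratios, the most abundant, the longest and shortest, and neighbours, and of other lists the 2 highest and lowest. Subunit came from the symbol, and homology and site from textbook knowledge. Ratios used a pseudocount of 1. Span and input were cut into 10 bins over all genes. Alternatives were pseudocounts of 0.1, 0.5 and 5, FPKM filters, rescaling, centring and the span bins. The input bins and the members above 0 in both libraries were chosen after seeing the data. Python 3.11.15 was used with pandas 2.3.3, numpy 2.4.6 and scipy 1.17.1. The ratio and the span correction were tested on simulated RIP values above 0. Recovery was required there only for genes shifted upward, so values lower in the RIP and zeros were not covered by it.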

Additional observations from a re-analysis of the deposited data

How the results depend on the processing

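The members' median log2 ratio stayed below 0 under every alternative run. A pseudocount of 5 gave medians of -2.11 for all members, -1.67 for the small subunit, -2.12 for members with a bacterial counterpart and -1.74 for mitochondria-specific ones, with 42 members at least 4-fold lower and a rank correlation of ratio and span of 0.226. Rescaling each library to a sum of 1000000 gave -2.19 for all members, -2.14 for the large subunit, -2.17 with a bacterial counterpart, -1.87 for mitochondria-specific members and -0.44 for the other mitochondrial translation genes, with 42 members at least 4-fold lower and 3 at least 1.5-fold higher. Rescaling both libraries to the mean of their sums gave -2.0 for all members, -1.99 for the large and -2.01 for the small subunit, -2.01 with a bacterial counterpart, -1.57 for mitochondria-specific members and -0.41 for the other translation genes, with 39 members at least 4-fold lower and 3 at least 1.5-fold higher. Subtracting the median of the span bin left 2 members at least 1.5-fold higher and gave a rank correlation with span of -0.35. Subtracting that of the input bin gave -0.87 for all members, -0.85 for the large and -0.89 for the small subunit.

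The difference of medians, large minus small, turned positive with a pseudocount of 0.1 (0.072) or 0.5 (0.076), with either rescaling (0.072 and 0.015) and with the input bins (0.043). Of single members, MRPL49 turned positive under the rescalings (0.13 in both) and the span bins (0.34), MRPS5 under the rescalings (0.17 and 0.16) and MRPS34 under the span bins (0.088). In the other direction, centring on the median gene put MRPS27 at -0.27 and MRPL36 at -0.11, and the span bins put MRPS27 at -0.98. The causes were not tested. No paired analysis was possible because each group has 1 library. With 1 library per group, no control antibody and no read counts, neither replicate spread nor counting error can be given, and a 0 in the RIP has no known limit.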
